A study of Mus musculus with 12 samples.

Results

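Doxorubicin (DOX), an anthracycline used against many cancers, was compared with DPD, read here as the doxorubicin prodrug of the series title, each given alone to mice that carried MC38 tumours. The comparison was defined by the agent label, which gave 2 DPD libraries and 2 DOX libraries of the 12 in the study, and it covered all 19525 genes that passed a filter on low counts. C57BL/6J mice, 8 weeks old, carried MC38, a mouse colon carcinoma line, under the skin of the left flank. DPD mice and DOX mice received 14 µg of their compound (0.56 mg/kg) into the peritoneum every 3 days from day 9, and tumours were taken on day 20. In R+D tumours (2 libraries) and R+X tumours (2 libraries), read as the conjugate Ru-PD-L1 with DPD and with DOX, 14 µg of the compound was injected beside the tumour 6 hours after the conjugate, whose dose there is not stated. These readings rest on the letters of the labels, and if they stand the other way round the R+D and R+X values change places. Ru-PD-L1 is an antibody-catalyst conjugate directed at PD-L1, a ligand that restrains T cells. The RP group (2 libraries), which had 20 µg of the conjugate alone (0.80 mg/kg), entered the fit but no comparison here, and Ctrl mice (2 libraries) received PBS. The doses of DPD and DOX match by mass, and the labels give neither molar doses nor a structure for DPD. Nor do they say whether each library is a mouse of its own, and the p-values therefore reflect only how far these samples scatter, which could be technical scatter.

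Doxorubicin inserts into DNA and traps topoisomerase II on it, which leaves double-strand breaks and switches on p53 and its targets. A prodrug is a masked form of a drug that becomes active after chemical or enzymatic conversion. T cells and natural killer (NK) cells in a tumour can release interferon gamma, which raises guanylate-binding proteins, T cell chemokines, PD-L1 and the genes of antigen presentation. The RNA came from whole tumour pieces, so fewer cells of a type and less RNA per cell cannot be told apart.

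The 2 DPD libraries held 55243633 and 48579061 counts and the 2 DOX libraries 50741609 and 49733254, within the 46547114 to 56462259 of all 12. Libraries of a group resembled each other about as much as libraries of different groups did. The correlation of log2 CPM (CPM, the count scaled to library size with TMM factors) was 0.9763 between the DPD libraries, 0.9685 between the DOX libraries and 0.9659 to 0.9799 between a DPD and a DOX library. DPD replicate 1 lay nearest to Ctrl replicate 1, DPD replicate 2 to R+D replicate 1, DOX replicate 1 to Ctrl replicate 2, and DOX replicate 2 to R+X replicate 1. Transcript length moved with this split: against the mean of the 4 libraries, log2 CPM correlated with length across genes (Spearman) at -0.50 in DPD replicate 1 and 0.50 in DPD replicate 2, and at -0.59 in DOX replicate 1 and 0.51 in DOX replicate 2. The DPD over DOX fold change itself correlated with length at 0.29, and its part in the results for single genes was not tested. With the length trend removed, list medians of DPD over DOX were 0.75 for the interferon gamma response, 0.64 for MHC class II presentation, -1.98 for red blood cells and -0.26 for ribosomal proteins. Too few T, cytotoxic, regulatory T and B cell markers had a length and 1 CPM for that value. Of 16 epithelial and MC38 markers, 3 to 5 were at 0 in these libraries. Epcam, an epithelial adhesion molecule, stood at 0.551 and 0.295 CPM in the DPD libraries and 0.287 and 0.284 CPM in the DOX libraries. Cdh1, the adhesion molecule E-cadherin, stood at 15.4 and 14.3 CPM in DPD, against 10.4 and 14.0 CPM in DOX.

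**Figure D1:**
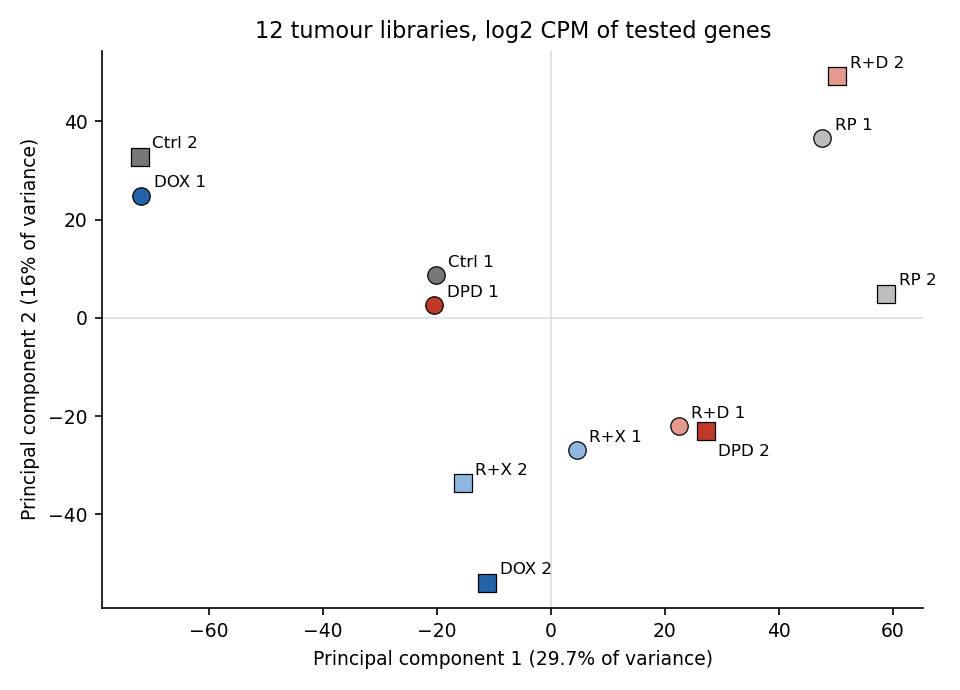
Principal component 1 (x axis) and 2 (y axis) of log2 CPM over the tested genes, with their share of the variance, for 12 libraries in 6 groups; circles are replicate 1 and squares replicate 2. The 2 DPD libraries lie at -20.4 and 27.2 on component 1 and the 2 DOX libraries at -71.8 and -11.2, and the DOX libraries lie far apart on component 2, at 24.9 and -53.9.

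No gene passed the test between DPD and DOX tumours. With edgeR's quasi-likelihood test, 0 of 19525 genes passed a Benjamini-Hochberg adjusted p under 0.05 (0% called), and the smallest adjusted p was 0.859. At an unadjusted p under 0.05 stood 588 genes with higher values in DPD (3.01%) and 249 with lower values (1.28%), together 837, against 976 expected if no gene differed. On the same libraries DESeq2 called 8 genes and limma-voom 0. Of all tested genes, 2614 (13.4%) were higher in both DPD libraries than in both DOX libraries and 2037 (10.4%) were lower, and these shares are the background for the counts of members below. A p that misses the threshold does not show that the compounds acted alike, so the intervals of the difference matter. Among 14204 genes with a mean of at least 1 CPM, the 95% interval of the log2 fold change reached a median of 0.52 to either side. It lay wholly within 1 log2 unit of 0 for 10929 of them (76.9%) and within 2 log2 units for 13899 (97.9%).

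By a rule that took the 10 named genes of smallest p in each direction among genes whose groups did not overlap and whose mean was at least 1 CPM, the higher end held Apol10b, Apol6, Serpina3f, Serpina3g, Klrk1, Ciita, Slco3a1, Nup210, Gja4 and Uba7. The lower end held Kdm5b, Medag, Hbb-bt, Cxcl1, Car9, Ncam1, Alas2, Mmp9, Nr2f1 and Laptm4b. None of these 20 genes passed the test: by edgeR's test the adjusted p was 0.859 for Apol10b and 0.979 for the other 19. The mean of the Ctrl libraries lay between the DPD and DOX means for 10 of 10 higher and 10 of 10 lower genes. It did so for 58.9% of all genes whose DPD and DOX libraries did not overlap, whatever their p or level. Choice by smallest p favours a wide gap between the DPD and DOX means, which leaves more room for Ctrl between them. The 58.9% is therefore not a matched background, and no conclusion is drawn from the 10 of 10 counts.

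Apol10b and Apol6 belong to the apolipoprotein L family of lipid-binding proteins and lie on the same chromosome, at chr15:77584154-77598542 and chr15:77045050-77057108 (RefSeq, GRCm38.p6). Apol10b stood at 12.4 and 14.95 CPM in the DPD libraries and 5.425 and 6.398 CPM in the DOX libraries, a log2 fold change of 1.21 ± 0.18 (SE). Apol6 stood at 18.3 and 25.9 CPM in DPD, against 8.14 and 7.11 CPM in DOX (log2 fold change 1.54 ± 0.29). Both genes were higher in both DPD libraries than in any DOX or Ctrl library, with Ctrl at 8.10 and 7.01 CPM for Apol10b and 12.3 and 10.4 CPM for Apol6. Serpina3f and Serpina3g are neighbours in a cluster of serine protease inhibitor genes, at chr12:104214544-104221129 and chr12:104236147-104241939. Serpina3f had 25.5 and 31.4 CPM in DPD, against 6.75 and 11.0 CPM in DOX (log2 fold change 1.68 ± 0.33). Serpina3g had 70.2 and 69.0 CPM in DPD, against 36.3 and 43.5 CPM in DOX (log2 fold change 0.80 ± 0.16). These 4 genes had the smallest p of the higher end, and DESeq2 called all 4. Because both families hold close copies, reads shared between copies could have been split, and the values are uncertain to that extent.

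The promoters of Apol10b, Serpina3f and Serpina3g are shown because these genes led the ranking, and because interferon acts on promoters through the ISRE and GAS elements. Each window runs from 250 bases before to 50 bases after the start site on the gene's own strand (RefSeq, GRCm38.p6), and capitals mark matches to the ISRE (GAAA, any 2 bases, GAAA), the GAS element (TTCNNNGAA) or a TATA motif (TATAAA), searched on both strands.
Apol10b (chr15:77596076-77596375, minus strand): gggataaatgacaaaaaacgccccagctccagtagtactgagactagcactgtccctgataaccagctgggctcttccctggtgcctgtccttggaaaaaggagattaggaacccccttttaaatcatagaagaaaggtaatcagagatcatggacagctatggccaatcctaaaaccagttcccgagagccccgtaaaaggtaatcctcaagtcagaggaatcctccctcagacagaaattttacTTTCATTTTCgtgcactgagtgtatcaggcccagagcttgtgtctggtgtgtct
Serpina3f (chr12:104214294-104214593, plus strand): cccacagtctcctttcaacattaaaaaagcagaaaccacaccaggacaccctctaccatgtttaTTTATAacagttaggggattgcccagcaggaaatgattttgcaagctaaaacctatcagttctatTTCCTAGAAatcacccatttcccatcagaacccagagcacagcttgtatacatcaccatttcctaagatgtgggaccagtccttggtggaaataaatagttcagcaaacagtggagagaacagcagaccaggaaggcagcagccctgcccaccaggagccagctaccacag
Serpina3g (chr12:104235897-104236196, plus strand): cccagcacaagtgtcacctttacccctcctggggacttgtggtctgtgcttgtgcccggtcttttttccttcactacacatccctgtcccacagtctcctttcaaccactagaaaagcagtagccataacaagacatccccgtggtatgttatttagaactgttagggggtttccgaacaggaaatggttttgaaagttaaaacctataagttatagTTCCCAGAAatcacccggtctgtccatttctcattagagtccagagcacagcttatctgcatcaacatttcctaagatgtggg
In Apol10b the ISRE match lies on the opposite strand and begins 4 bases before the start site used. That window lies inside the span given above for this minus-strand gene, and it was the only one available. The outer end of Apol10b was therefore not searched. The GAS match begins 121 bases before the first of the RefSeq start sites in Serpina3f, whose TATA match is on the opposite strand, and 33 bases before it in Serpina3g. The ISRE was found in 3.44% of 32851 RefSeq promoter windows, the GAS element in 8.3% and the TATA motif in 13.6%, or in 3.99%, 9.55% and 15.7% of the 27025 genes they belong to. Of the 20 genes, 7 higher and 7 lower ones had a promoter in the table. An ISRE was in 1 of the 7 higher and 0 of the 7 lower genes, a GAS element in 2 of 7 higher and 1 of 7 lower genes, and a TATA motif in 1 of 7 higher and 2 of 7 lower genes. The 2 higher genes with a GAS element are the neighbours Serpina3f and Serpina3g, whose matches are followed by the same letters, so they are not separate finds. The GAS motif was added with results known, and no excess over the background was tested. A match describes these letters only and is not a site of binding.

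Of the other 6 genes at the higher end, 2 stand in an immune list and 1 in the endothelial list. Klrk1 encodes NKG2D, an activating receptor of NK and CD8 T cells. It stood at 3.12 and 4.30 CPM in the DPD libraries and 1.21 and 1.54 CPM in the DOX libraries (log2 fold change 1.43 ± 0.31). Ciita, the master regulator of MHC class II genes, had 18.0 and 19.2 CPM in DPD, against 9.37 and 9.11 CPM in DOX (1.01 ± 0.24 on the log2 scale). Gja4, a gap junction protein of arterial endothelium, had 9.15 and 12.8 CPM in DPD, against 5.96 and 4.19 CPM in DOX (1.11 ± 0.27). Uba7, the enzyme that activates the interferon-induced modifier ISG15, differed less, with 27.7 and 31.9 CPM in DPD and 20.4 and 19.7 CPM in DOX (0.57 ± 0.14). Slco3a1, an organic anion transporter, and Nup210, a nuclear pore protein, both had log2 fold changes of 0.93 ± 0.22. In each of these 6 genes the 2 DPD libraries were above the 2 DOX libraries, as the rule requires.

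Kdm5b, a demethylase of histone H3 lysine 4, led the lower end by p and had closely matched replicates: 9.57 and 10.1 CPM in the DPD libraries, against 16.0 and 18.6 CPM in the DOX libraries (log2 fold change -0.82 ± 0.17). Medag, a regulator of fat cell formation, had 96.4 and 68.8 CPM in DPD, against 135.9 and 157.9 CPM in DOX (-0.83 ± 0.19). Cxcl1, a chemokine that draws neutrophils, had 2.41 and 1.61 CPM in DPD, against 4.87 and 10 CPM in DOX (-1.89 ± 0.45). Car9, a carbonic anhydrase induced under low oxygen, had 18.1 and 19.8 CPM in DPD, against 39.9 and 31.3 CPM in DOX (-0.91 ± 0.22). Mmp9, a gelatinase made by neutrophils and macrophages, had 29.4 and 15.8 CPM in DPD, against 55.95 and 40.1 CPM in DOX (-1.09 ± 0.28). Ncam1 (neural cell adhesion molecule, -0.66 ± 0.16), Nr2f1 (a nuclear receptor, -0.72 ± 0.19) and Laptm4b (a lysosomal membrane protein, -0.84 ± 0.22) completed these genes, with values on the log2 scale. All were lower in both DPD libraries, as the rule requires. Of these 8 genes, DESeq2 called Kdm5b alone. The lists that hold Cxcl1 and Mmp9 had medians above 0, at 0.14 for inflammatory cytokines and chemokines (7 of 23 higher and 3 lower in both DPD libraries) and 0.19 for neutrophil markers (6 of 16 higher and 1 lower). Without DOX replicate 1 these medians were -0.15 and -0.11.

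**Figure D2:**
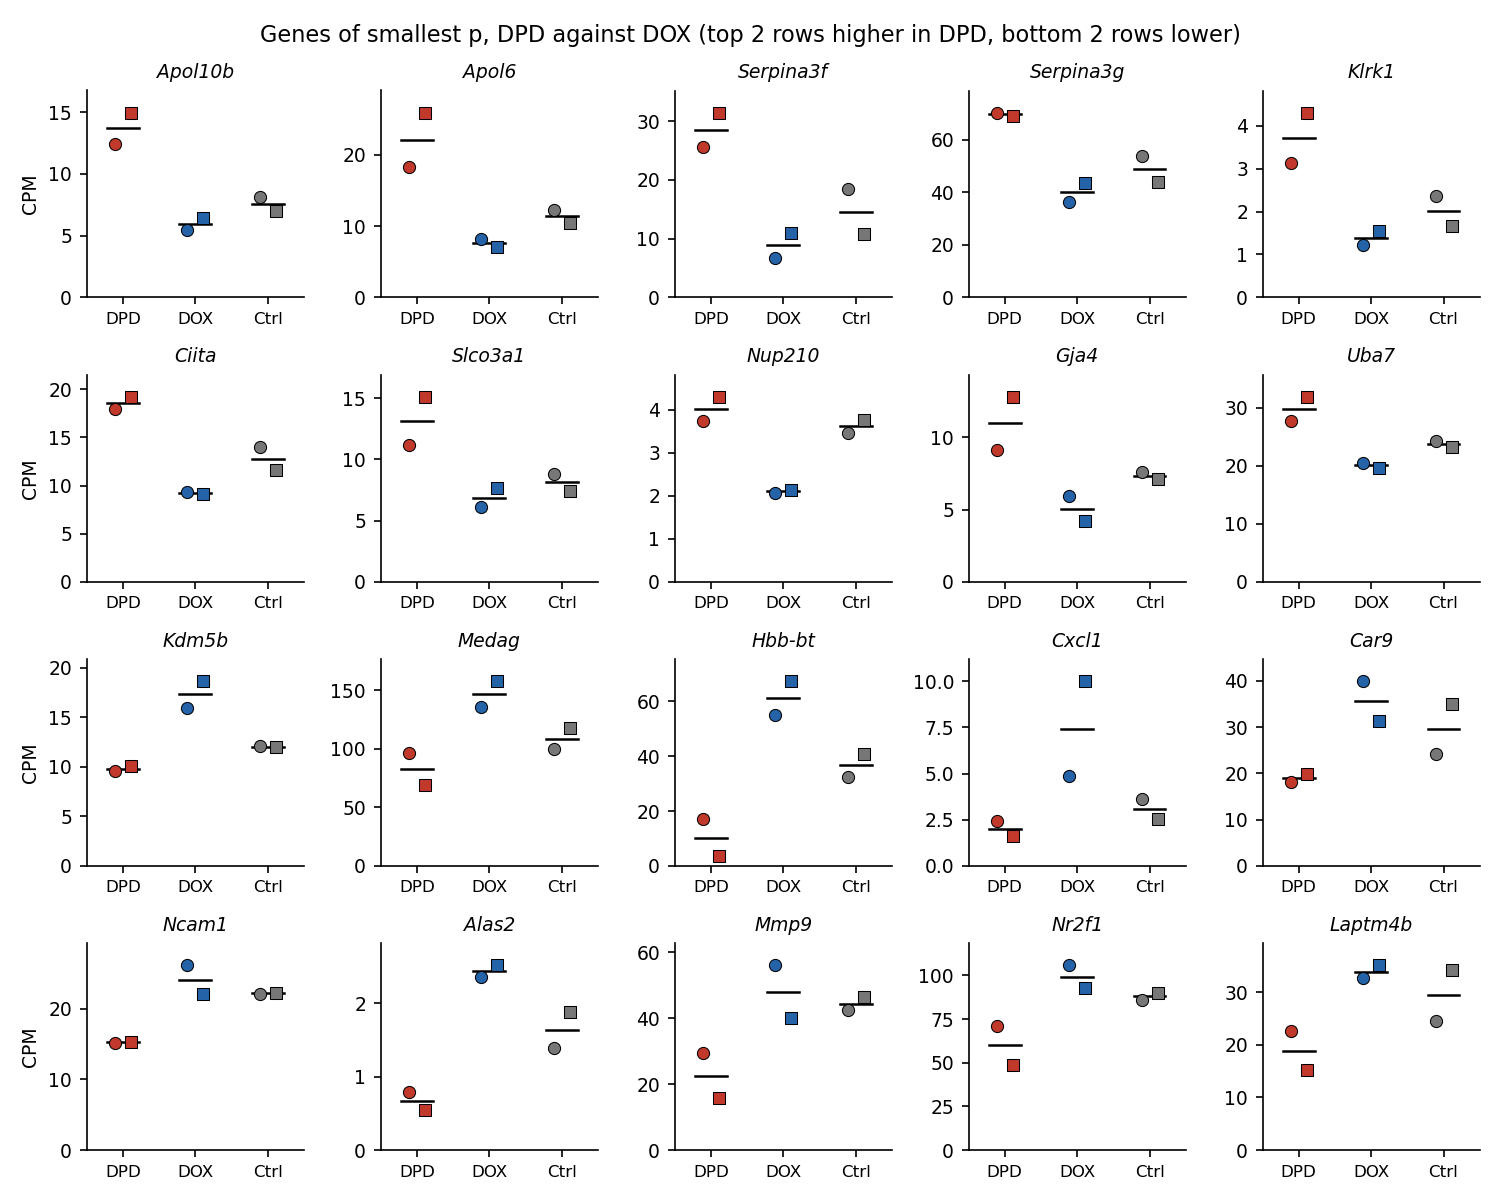
CPM (y axis, from 0) of the 20 genes in DPD, DOX and Ctrl libraries; circles are replicate 1, squares replicate 2 and bars the mean of 2 libraries. The 2 red DPD points lie above both blue DOX points in the top 10 panels and below them in the bottom 10, as the rule requires, with Apol10b at 12.4 and 14.95 CPM in DPD and 5.425 and 6.398 CPM in DOX.

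Interferon gamma response genes stood higher in DPD tumours as a group, although 0 of them passed the test. All 28 members had a positive log2 fold change, with a median of 0.75, against -0.02 over all tested genes, and 21 of 28 (75%) were higher in both DPD libraries, against a background of 13.4%. Gbp4, a guanylate-binding GTPase, had 55.7 and 96.3 CPM in the DPD libraries and 23.1 and 38.0 CPM in the DOX libraries (log2 fold change 1.31 ± 0.36). Gbp2, of the same family, had 323.7 and 399.5 CPM in DPD, against 177.9 and 221.1 CPM in DOX (0.86 ± 0.24). Both guanylate-binding proteins separated the groups, DPD replicate 2 being the highest of the 4 libraries. Cxcl9 and Cxcl10, chemokines that draw T cells, also separated the groups, with DPD replicate 1 the highest. Cxcl9 had 79.3 and 77.6 CPM in DPD, against 29.5 and 45.1 CPM in DOX (1.07 ± 0.35). Cxcl10 had 91.5 and 83.7 CPM in DPD, against 41.0 and 60.8 CPM in DOX (0.78 ± 0.24). Cd274, which encodes PD-L1, had 27.8 and 34.9 CPM in DPD, against 14.0 and 24.1 CPM in DOX (0.72 ± 0.27). For these 5 genes edgeR gave an adjusted p of 0.979. Ifng itself overlapped between the groups at low levels, 0.276 and 1.22 CPM in DPD and 1.08 and 0.385 CPM in DOX (0.03 ± 0.70). The summed level of the list was 2436 and 2944 CPM in DPD, 1567 and 1757 CPM in DOX, and 1973 and 1695 CPM in Ctrl. Against the same Ctrl libraries its median was 0.60 for DPD and -0.12 for DOX. The median was 0.59 with the ribosomal protein score as a covariate and 0.41 with the red blood cell score as a covariate.

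T cell markers stood higher in DPD tumours as a group, with 0 of them past the test. All 19 tested of 22 T cell markers had a positive log2 fold change, with a median of 0.85, and 16 of 19 (84.2%) were higher in both DPD libraries. Cd3e, a chain of the T cell receptor complex, had 4.08 and 4.15 CPM in DPD, against 1.63 and 1.78 CPM in DOX (log2 fold change 1.27 ± 0.36). Zap70, the kinase that the receptor recruits, had 2.72 and 3.11 CPM in DPD, against 1.566 and 1.397 CPM in DOX (0.97 ± 0.32). Both genes were close between replicates and apart between groups, whereas the Ctrl libraries, with Cd3e at 3.75 and 4.02 CPM, lay near the DPD ones. Cd8a, the coreceptor of cytotoxic T cells, had 6.83 and 8.43 CPM in DPD, against 4.92 and 4.43 CPM in DOX (0.71 ± 0.44). Without DPD replicate 2 the T cell median was 0.54, and with the red blood cell score as a covariate it was 0.02.

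Among 22 cytotoxic and NK markers, 21 had a positive log2 fold change (median 0.63), 16 were higher in both DPD libraries and 1 was lower. Il2rb, a chain of the interleukin receptor that sustains NK and CD8 T cells, had 13.01 and 19.39 CPM in DPD, against 9.86 and 9.47 CPM in DOX (log2 fold change 0.74 ± 0.28). Gzmb, the killing protease granzyme B, had 9.87 and 14.6 CPM in DPD, against 7.70 and 6.13 CPM in DOX (0.82 ± 0.38). Ccl5, a chemokine made by activated T cells, had 7.61 and 8.66 CPM in DPD, against 4.92 and 4.41 CPM in DOX (0.80 ± 0.31). In all 3 genes the DPD libraries were the higher ones. Gzmk, another granzyme, had 0.147 and 0.177 CPM in DPD and was at 0 in both DOX libraries. That is at least 2.55-fold higher when DOX is set to a chosen floor of 3 counts per library. With Gzmk at that bound the list median was 0.63. The filter on low counts used all 12 libraries, so members at low levels, Gzmk among them, may have passed it only through groups outside this comparison. The counts of this list carry that limit. Without DPD replicate 2 the median was 0.42, and with the red blood cell score as a covariate it was 0.40.

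Of 9 regulatory T cell markers, 8 had a positive log2 fold change (median 0.75) and 3 were higher in both DPD libraries. Foxp3, the factor that defines these cells, had 1.32 and 3.44 CPM in DPD, against 0.926 and 0.992 CPM in DOX (log2 fold change 1.31 ± 0.48). DPD replicate 2 was highest, and without it the list median was 0.04, and 1.296 without DPD replicate 1. With the red blood cell score as a covariate the list turned direction, to a median of -0.79, and with the ribosomal score the median was 0.38. Of 17 B and plasma cell markers 8 were tested, with a median of 1.38, 5 higher in both DPD libraries and 1 lower. Jchain, which joins secreted antibodies, had 1.53 and 10.7 CPM in DPD, against 0.243 and 0.709 CPM in DOX (3.67 ± 1.06), and 1.66 on the log2 scale without DPD replicate 2. The summed level of the B and plasma cell list was 3.90 and 13.7 CPM in DPD and 2.69 and 2.49 CPM in DOX. In DOX, 4 and 7 of the 14 markers with an entry were at 0. RP libraries summed to 27.85 and 17.69 CPM, and the filter on low counts used all 12 libraries. Members may therefore have passed it only through groups where they were high, and the median carries that limit. The list median was 0.91 without DPD replicate 2, 0.75 without DOX replicate 2, 0.61 in a fit to only the 4 libraries compared and 0.50 with the red blood cell score as a covariate.

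All 11 tested MHC class II presentation genes had a positive log2 fold change, with a median of 0.57, and 8 of 11 (72.7%) were higher in both DPD libraries. H2-Aa, a class II chain, had 119.1 and 98.5 CPM in DPD, against 83.3 and 64.3 CPM in DOX (0.56 ± 0.26). Ctss, the protease that trims the class II chaperone, had 245.5 and 223.2 CPM in DPD, against 168.8 and 135.9 CPM in DOX (0.62 ± 0.19). Ctrl libraries lay above both groups for H2-Aa, at 131.0 and 145.5 CPM, and against them the list median was -0.26 for DPD and -0.64 for DOX. Without DOX replicate 2 the DPD over DOX median was 0.36.

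Of 22 MHC class I presentation genes, 18 had a positive log2 fold change and 6 were higher in both DPD libraries. Their median of 0.25 was -0.04 without DOX replicate 2 and 0.55 without DOX replicate 1. Tap1, which moves peptides into the endoplasmic reticulum, had 94.2 and 110.1 CPM in DPD, against 81.3 and 53.5 CPM in DOX (log2 fold change 0.60 ± 0.22). B2m, the light chain of class I, overlapped (-0.03 ± 0.19). Of 22 macrophage and monocyte markers, 20 had a positive log2 fold change (median 0.28) and 10 were higher in both DPD libraries. Fcgr3, an antibody receptor, had 69.3 and 56.9 CPM in DPD, against 48.5 and 38.7 CPM in DOX (0.53 ± 0.16). The mean level of this list overlapped between the groups, and its median was 0.03 without DOX replicate 2 and 0.08 without DPD replicate 1. Dendritic cell markers had a median of 0.49, with 8 of 17 higher in both DPD libraries and 1 lower, and Irf8, a factor of the cross-presenting type, had 42.5 and 39.7 CPM in DPD, against 31.6 and 26.02 CPM in DOX (0.51 ± 0.16). The summed level of the dendritic cell list overlapped, at 701.1 and 602.1 CPM in DPD and 829.8 and 553.7 CPM in DOX. With the red blood cell score as a covariate the dendritic cell median was -0.01.

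Genes of the type I interferon response had a median of 0.21, with 10 of 28 higher in both DPD libraries and 1 lower, and the median was -0.19 with the red blood cell score as a covariate. Zbp1, a sensor of Z-form nucleic acids, had 39.76 and 46.18 CPM in DPD, against 31.82 and 27.72 CPM in DOX (log2 fold change 0.53 ± 0.17). Immune checkpoint genes had a median of 0.35, with 8 of 15 higher in both DPD libraries, 0.20 without DPD replicate 2 and 0.11 with the red blood cell score as a covariate. Endothelial markers had a median of 0.26, with 7 of 17 higher in both DPD libraries, and 0.11 without DOX replicate 2. The endothelial median was 0.11 with the skeletal muscle score and -0.06 with the red blood cell score as a covariate. In these 3 lists 0 genes passed edgeR's test.

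**Figure D3:**
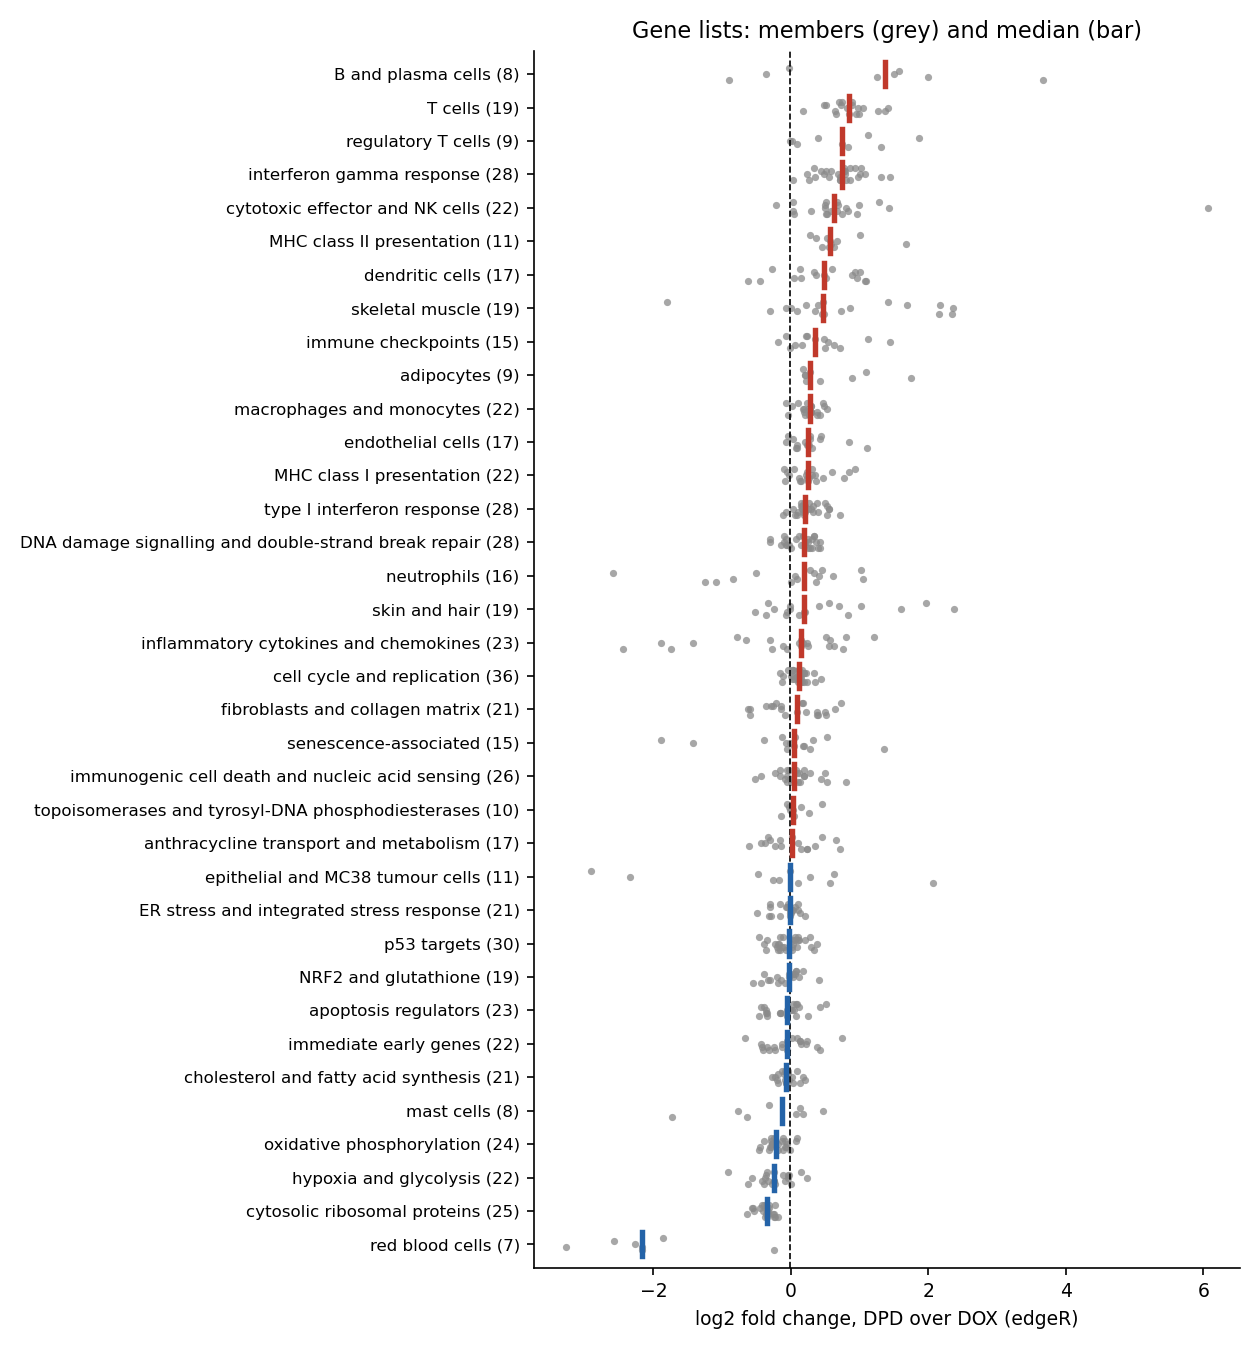
Log2 fold change of DPD over DOX (x axis) for the tested members of 36 gene lists (grey points, number tested in brackets) with each list's median as a bar, red above 0 and blue below; the dashed line is the median of all tested genes, -0.02. B and plasma cells, T cells, regulatory T cells and the interferon gamma response lead with medians of 1.38, 0.85, 0.75 and 0.75, red blood cells lie lowest at -2.17, and the point beyond 6 is Gzmk, which was at 0 in both DOX libraries and whose fitted value is no estimate of size. The B and plasma cell median was 0.61 in a fit to only the 4 libraries compared.

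Red blood cell genes had the largest gap of any list, and it pointed the other way. All 7 tested of 10 markers had a negative log2 fold change, with a median of -2.17, and 6 of 7 (85.7%) were lower in both DPD libraries, against a background of 10.4%. The summed level was 134.7 and 33.1 CPM in the DPD libraries and 381.6 and 357.2 CPM in the DOX libraries, with Ctrl at 235.0 and 272.8 CPM. Hbb-bt, an adult beta globin, had 17.0 and 3.58 CPM in DPD, against 55.1 and 67.4 CPM in DOX (-2.57 ± 0.58). Alas2, the erythroid enzyme of haem synthesis, had 0.790 and 0.550 CPM in DPD, against 2.36 and 2.51 CPM in DOX (-1.86 ± 0.47). The DOX libraries lay above and the DPD libraries below the Ctrl libraries, and DPD replicate 2 was lowest. Without DPD replicate 1 the list median was -3.72. Globin genes are near-identical copies, so the split of reads between them is uncertain. Red blood cell genes thus moved with the same split of the 4 libraries as the immune genes above, and their part in those results was not tested apart from the covariate values given, since the score does not overlap between the groups. With that score as a covariate the log2 fold change was 0.77 for Apol10b, 0.20 for Gbp4, -0.98 for Foxp3 and 0.05 for Mmp9.

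Other tissue lists differed in summed level as follows. Skeletal muscle genes, at 21.7 and 25.2 CPM in DPD and 19.3 and 16.2 CPM in DOX, were low in all 4 libraries, with a list median of 0.47. Of 19 tested, 16 had a positive log2 fold change. In both DPD libraries 10 were higher (52.6%, background 13.4%) and 2 lower. The mean level of the list was higher in both DPD libraries than in both DOX libraries, as for the immune lists above. Skin and hair genes summed to 506.8 and 405.1 CPM in DPD and 457.7 and 329.6 CPM in DOX. Their mean log2 CPM, centred per gene, differed widely within DPD, at 1.62 in replicate 1 and -1.76 in replicate 2, against -0.37 and 0.53 in DOX. The skin and hair list median was 0.18, and it was -2.25 without DPD replicate 1 and 1.14 without DOX replicate 2. For DPD against DOX, 0 genes were called with the muscle or the skin score as a covariate.

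Hypoxia and glycolysis, ribosomal protein and respiratory genes had medians below 0 in DPD over DOX that turned above 0 without DOX replicate 1. Of 22 hypoxia and glycolysis genes 19 had a negative log2 fold change (median -0.25), 4 were lower in both DPD libraries (18.2%, background 10.4%), and without DOX replicate 1 the median was 0.03. P4ha1, a collagen hydroxylase induced under low oxygen, had 248.9 and 267.2 CPM in DPD, against 349.0 and 318.7 CPM in DOX (-0.37 ± 0.14). All 25 cytosolic ribosomal protein genes had a negative log2 fold change (median -0.35), although 1 of 25 was lower in both DPD libraries. Their summed level was 41330 and 29140 CPM in DPD, and 57220 and 33470 CPM in DOX, so DOX replicate 1 stood apart, and without it the median was 0.13. The median of 24 oxidative phosphorylation genes was -0.22, and 0.14 without DOX replicate 1.

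Genes of the known doxorubicin response had medians near 0. The median of 30 p53 targets was -0.03, with 15 positive and 15 negative log2 fold changes, 5 higher (16.7%) and 4 lower (13.3%) in both DPD libraries, against backgrounds of 13.4% and 10.4%. Without DOX replicate 1 the median was 0.07, and without DOX replicate 2 it was 0.09. Against Ctrl the p53 target median was 0.02 for DPD and 0.0048 for DOX. For DNA damage signalling and repair genes it was 0.17 for DPD and 0.01 for DOX. The DOX tumours thus showed no shift of these list medians over PBS, and values near 0 in DPD over DOX do not show an equal response. Cdkn1a, the p53 target that halts the cell cycle, had 76.3 and 87.1 CPM in DPD, against 105.2 and 65.9 CPM in DOX. Its log2 fold change was -0.07 with a 95% interval of -0.51 to 0.37. Mdm2, which marks p53 for degradation, had 46.2 and 48.8 CPM in DPD, against 41.6 and 52.2 CPM in DOX (0.02, interval -0.38 to 0.42). In both genes the libraries of the groups overlapped. Bax, a p53 target that promotes cell death, had 61.2 and 47.3 CPM in DPD, against 96.3 and 41.2 CPM in DOX (-0.34, interval -1.10 to 0.42), with DOX replicate 1 the highest.

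Top2a, the topoisomerase of dividing cells that doxorubicin traps, had 611.3 and 849.2 CPM in DPD, against 510.1 and 702.9 CPM in DOX (log2 fold change 0.27, 95% interval -0.19 to 0.72). Top2b, the form of non-dividing cells, had 123.5 and 143.2 CPM in DPD, against 94.0 and 176.1 CPM in DOX (-0.02, interval -0.61 to 0.57). Tdp2, which removes trapped topoisomerase II from DNA, had 35.5 and 34.8 CPM in DPD, against 36.2 and 32.9 CPM in DOX (0.03, interval -0.28 to 0.33). The 3 genes overlapped between the groups. Abcb1a, an efflux pump that exports doxorubicin, stood higher in both DPD libraries, at 4.98 and 8.74 CPM, against 4.15 and 4.25 CPM in DOX (0.71, interval 0.08 to 1.33), with 0.24 on the log2 scale without DPD replicate 2. Abcb1b, its close copy, overlapped at 69.5 and 87.7 CPM in DPD and 50.5 and 72.7 CPM in DOX (0.35, interval -0.09 to 0.79). The whole anthracycline transport and metabolism list had a median of 0.01, with 3 of 17 tested genes higher and 4 lower in both DPD libraries.

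DNA damage signalling and repair genes had a median of 0.19, with 5 of 28 higher and 0 lower in both DPD libraries, and medians of -0.0011 without DOX replicate 1 and 0.36 without DOX replicate 2. Of 36 cell cycle and replication genes 32 had a positive log2 fold change, but the median was 0.11 and 6 were higher (16.7%) and 1 lower in both DPD libraries. Mki67, a marker of cycling cells, had 285.9 and 453.7 CPM in DPD, against 210.8 and 367.1 CPM in DOX (log2 fold change 0.36, 95% interval -0.27 to 0.98), so the libraries within each group differed more than the group means did. Calr and Hmgb1, proteins exposed or released in immunogenic cell death, had log2 fold changes of -0.05 (interval -0.43 to 0.32) and -0.01 (interval -0.45 to 0.43). Apoptosis regulators had a median of -0.05, with 2 of 23 higher and 5 lower in both DPD libraries. Of the 24 genes of the drug-response and immune panel, 16 overlapped between DPD and DOX, 8 were higher in both DPD libraries and 0 lower.

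**Figure D4:**
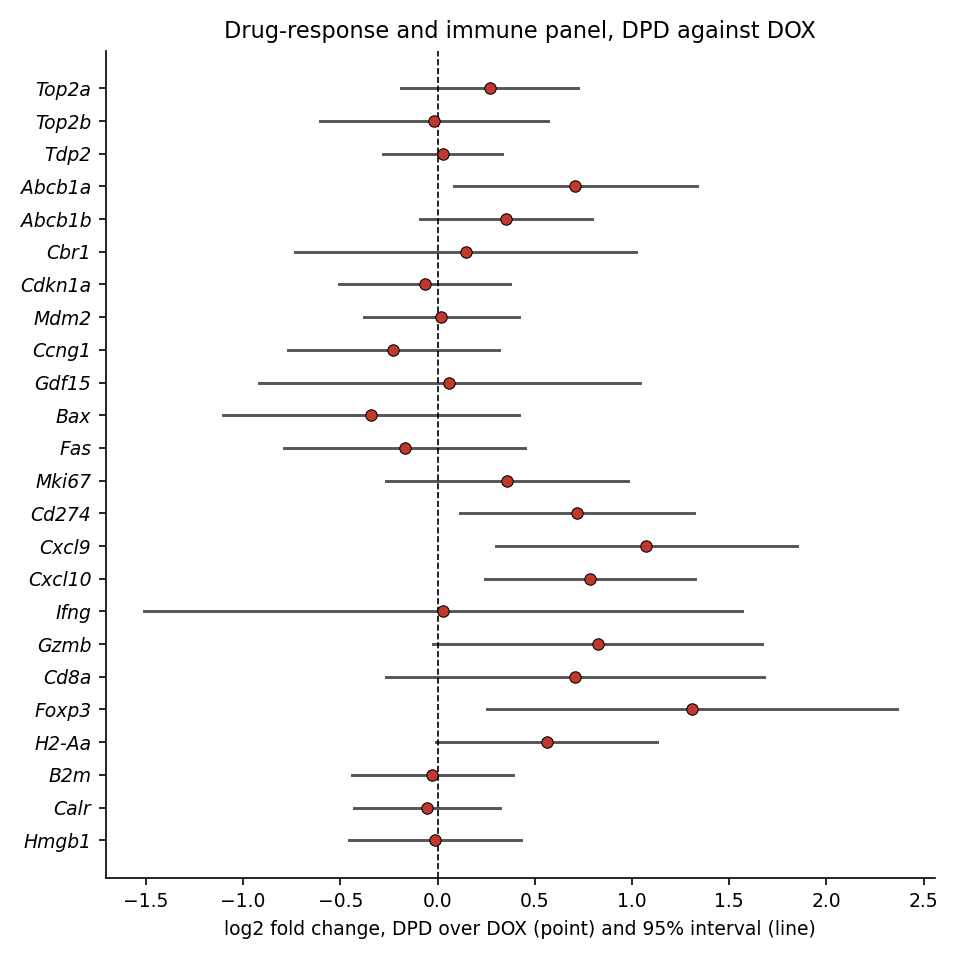
Log2 fold change of DPD over DOX (x axis; points) with its unadjusted 95% interval (lines) for the 24 panel genes, in 2 libraries per group. Intervals of 5 genes (Abcb1a, Cd274, Cxcl9, Cxcl10 and Foxp3) lie above 0 before adjustment over all genes and none lies below 0, while Top2a, Top2b, Tdp2, Cdkn1a and Mdm2 straddle it.

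Against PBS, each compound alone again gave 0 called genes in edgeR (0% called), and because both comparisons use the same 2 Ctrl libraries their values are given side by side only. For DPD against Ctrl, 510 genes were higher (2.61%) and 274 lower (1.4%) at an unadjusted p under 0.05, with a smallest adjusted p of 0.119. For DOX against Ctrl, 168 genes were higher (0.86%) and 239 lower (1.22%), with a smallest adjusted p of 0.290. DESeq2 called 4 and 1 genes in these comparisons. T cell markers had a median of 0.35 for DPD and -0.45 for DOX, cytotoxic and NK markers 0.37 for DPD and -0.26 for DOX, and red blood cell genes -1.65 for DPD and 0.55 for DOX. In these 3 lists the medians of the compounds lay on opposite sides of Ctrl.

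The same pair of compounds was also given with the conjugate, in other libraries and with the drug placed beside the tumour, so conjugate and route cannot be told apart. Here too edgeR called 0 of 19525 genes for R+D against R+X (732 higher, 3.75%, and 296 lower, 1.52%, at an unadjusted p under 0.05), with a smallest adjusted p of 0.763, and DESeq2 called 36. Groups did not overlap for 22.5% of genes in the higher direction and 23% in the lower. Of the 10 genes at the higher end of DPD against DOX, 8 were also higher in both R+D libraries than in both R+X libraries, and of the 10 at the lower end 7 were also lower. The p that ranked these genes came from the fit to all 12 libraries, so the scatter of R+D and R+X entered the choice. The 8 and 7 are therefore not independent of it, and the shares over all genes that follow carry no such ranking. Over all genes, 39.6% of those higher in DPD were higher in R+D too, which is 23.6% of those higher in R+D, and 35.9% of those lower in DPD were lower in R+D, or 16.3% of those lower in R+D. Across genes at 1 CPM or more the fold changes of the pairs correlated at r = 0.25 (Pearson) and 0.35 (Spearman), over libraries that the pairs do not share.

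Apol10b had 18.8 and 18.7 CPM in R+D, against 10.1 and 9.01 CPM in R+X (log2 fold change 0.98 ± 0.18, beside 1.21 ± 0.18 for DPD over DOX). Serpina3g had 102.4 and 94.7 CPM in R+D, against 60.2 and 53 CPM in R+X (0.80 ± 0.16, beside 0.80 ± 0.16). Gja4 had 23.3 and 28.2 CPM in R+D, against 10.1 and 6.56 CPM in R+X (1.62 ± 0.27, beside 1.11 ± 0.27). These 3 genes separated the prodrug from the free drug in both settings, none past the threshold. Kdm5b and Ciita overlapped between R+D and R+X, with Ciita at 18.1 and 14.2 CPM in R+D and 19.8 and 12.2 CPM in R+X, and Kdm5b at 11.3 and 11.3 CPM in R+D and 13.2 and 11.2 CPM in R+X. The test of the difference between the settings gave 0.99 ± 0.33 for Ciita and -0.71 ± 0.24 for Kdm5b on the log2 scale, with an adjusted p of 0.9999 in edgeR for both. That test called 0 of 19525 genes in all (0% called; 1.14% higher and 0.978% lower at an unadjusted p under 0.05), and DESeq2 called 3.

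By list, the interferon gamma response had a median of 0.78 in R+D over R+X, with 18 of 28 members higher in both settings, against 5.30% of all genes. T cell markers had a median of 1.10 (13 of 19 higher in both settings), and cytotoxic and NK markers 1.00 (14 of 22). Red blood cell genes had a median of -0.72, with 4 of 7 lower in both settings, against 3.75% of all genes. Hypoxia and glycolysis genes had a median of -0.31, with 21 of 22 lower in both R+D libraries, against 23% of all genes, and 4 lower in both settings. Ribosomal protein genes had a median of -0.13 (15 of 25 lower in both R+D libraries) and oxidative phosphorylation genes -0.15 (12 of 24). These lists lay on the same side of 0 in both settings. MHC class II genes lay on opposite sides, with a median of 0.57 in DPD over DOX and -0.11 in R+D over R+X, where 0 were higher and 6 lower in both R+D libraries. Skeletal muscle genes had a median of 2.97 in R+D over R+X, where R+D replicate 2 held 413.3 CPM of them, against 36.6 CPM in R+D replicate 1 and 28.8 and 16.9 CPM in R+X. The part of muscle in the R+D values was not tested.

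**Figure D5:**
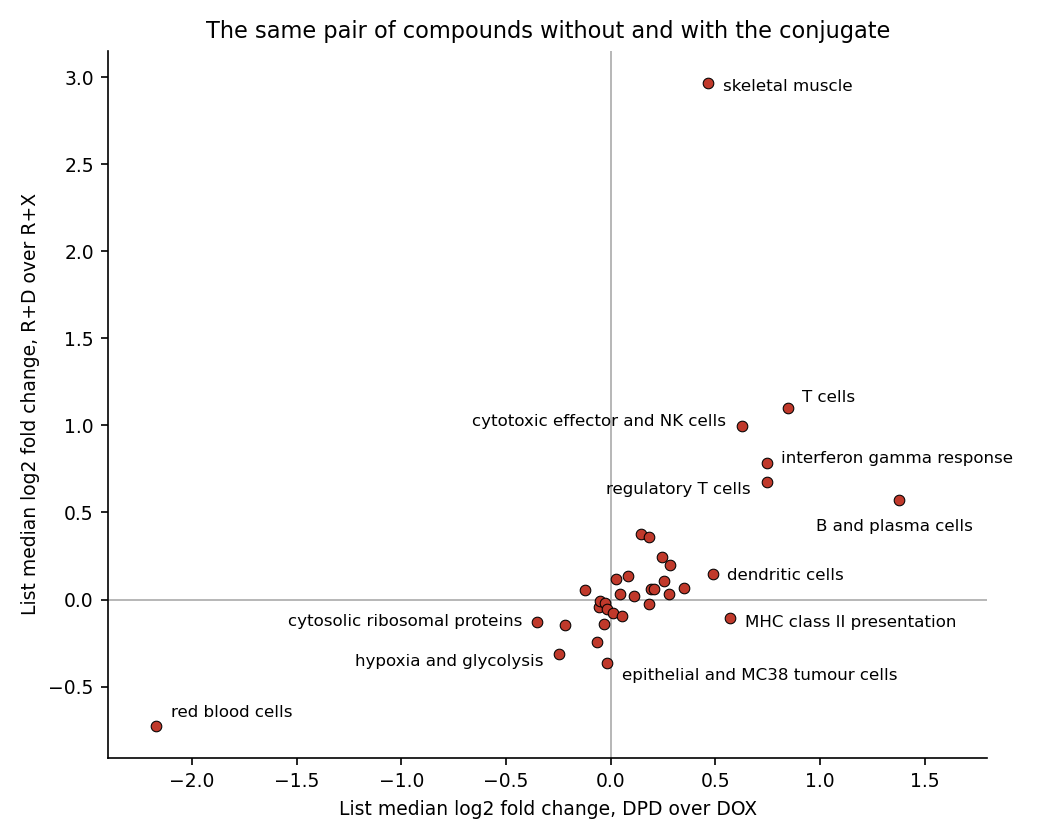
Median log2 fold change of each of 36 gene lists in DPD over DOX (x axis) and in R+D over R+X (y axis); each point is a list and the named ones are labelled. T cells (0.85 and 1.10) and the interferon gamma response (0.75 and 0.78) lie in the upper right, red blood cells (-2.17 and -0.72) in the lower left, and MHC class II presentation (0.57 and -0.11) in the lower right.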

How the data were processed

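Raw counts per gene were deposited by the authors for 12 libraries, 2 in each of 6 groups, as 1 table of 43698 gene entries and 12 single-library tables that equal its columns. HISAT2 2.1.0, StringTie 1.3.5, DESeq2 and the build GRCm38 are named in the submitters' processing notes, without their roles. The strand setting of the counting is not given in the sources used here. From the counts, CPM with TMM factors was computed, genes were filtered with filterByExpr (minimum count 10), and edgeR 4.0.16 (R 4.3.3) fitted a quasi-likelihood model to all 12 libraries in 6 groups, with p-values adjusted by Benjamini-Hochberg over 19525 genes at 0.05. Fits with other settings used limma 3.58.1 and DESeq2 1.42.0. The members and lists were chosen with earlier results of these data known. The named genes are the 10 of smallest p in each direction that do not overlap between groups and reach a mean of 1 CPM, with predicted and unnamed loci passed over, up to 4 members of smallest p per list, and a panel of 24 genes. Epcam and the genes named only with DESeq2 or a smaller fit were chosen after their values were seen. Promoters come from RefSeq (GRCm38.p6), and the GAS motif was added with results known. Intervals are at the 95% level. The fit was tested on simulated data.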

Additional observations from a re-analysis of the deposited data

Results flagged for a closer look

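The MHC class II presentation list was singled out because its groups did not overlap in either of the 2 settings and stood in opposite order, by a thin margin with the conjugate. Its mean level was higher in both DPD libraries than in both DOX libraries (list median 0.57 on the log2 scale) and lower in both R+D libraries than in both R+X libraries (list median -0.11). Mean log2 CPM, centred per gene, was 0.26 and 0.27 in DPD, against -0.105 and -0.657 in DOX. It was -0.270 and -0.140 in R+D, against -0.043 and -0.131 in R+X, so R+D replicate 2 and R+X replicate 2 nearly met. Over its genes, the median of the difference between the fold changes of the settings was 0.76, and this was not tested for the list. Summed levels were 1464 and 1237 CPM in DPD and 1056 and 785.8 CPM in DOX, against 971.6 and 1033 CPM in R+D, 1055 and 1152 CPM in R+X, and 1527 and 1653 CPM in Ctrl. For single genes edgeR's test of the difference between the settings gave H2-Aa 0.77 ± 0.36 and Ctss 0.62 ± 0.27 on the log2 scale, both with an adjusted p of 0.9999.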

How the results depend on the processing

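Counts of called genes (edgeR, adjusted p under 0.05) were 0 for each comparison, and moved as follows. DESeq2 called 8 for DPD against DOX (Apol10b, Apol6, Serpina3f, Serpina3g, Kdm5b, Plpp6, Trbv31 and 4933428G20Rik), 36 for R+D against R+X, 3 for the difference between the settings, 4 for DPD against Ctrl and 1 for DOX against Ctrl. Trbv31 had 8.54 CPM in DPD replicate 2 and was at 0 in DPD replicate 1 and both DOX libraries, so its call rests on 1 library. The adjusted p of Apol10b ranged from 3.87e-05 with DESeq2 to 1 over the alternatives. A fit to only the groups compared called 1 gene for DPD against DOX (Plpp6, at 0 in both DPD libraries) and 2 for DOX against Ctrl. No filter on low counts called 1 for DPD against Ctrl and 1 for DOX against Ctrl. Skin as a covariate called 2 for R+D against R+X. With covariates added after seeing the data, the ribosomal score called 1 for DPD against DOX, 1 for DPD against Ctrl and 1 for DOX against Ctrl, and the red blood cell score 1 for DOX against Ctrl. Leaving out each library in turn gave 0 to 1 called genes in every comparison (1 for DPD against DOX without DOX replicate 2), and a library left alone in its group was assumed to vary like the other groups.

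The red blood cell score is built from the red blood cell genes themselves, so it takes out their own difference by construction. Their values with it, 0.28 for Hbb-bt, 0.69 for Hbb-bs and 0.69 for Hba-a1, are therefore no test of those genes. Among other genes, log2 fold changes of DPD over DOX turned direction with the red blood cell score for Mmp9 (0.054), Jchain (-0.57), Col3a1 (0.0067), Foxp3 (-0.98), Abcb1a (-0.45), Exo1 (-0.095), Sesn1 (0.093), Abcb1b (-0.17), Atp5c1 (0.25), Top2a (-0.29), Mki67 (-0.54), Bax (0.027), Ccng1 (0.067), Calr (0.12), B2m (0.56), Hmgb1 (0.37) and Ifng (-2.38). They did so with the ribosomal score for Bax (0.12), Cdkn1a (0.081), Calr (0.050), B2m (0.046), Mdm2 (-0.042) and Hmgb1 (0.19), with limma-voom for Top2b (0.046), Hmgb1 (0.0023) and Ifng (-0.15), with skeletal muscle for Gdf15 (-0.042), Top2b (0.081) and Ifng (-0.21), and with skin for Ifng (-0.049). Leave-one-out values that crossed 0 ranged from -0.022 to 0.81 for Mki67, -0.079 to 0.55 for Krt14, -0.83 to 0.40 for Bax, -0.59 to 0.27 for Ccng1, -0.42 to 0.14 for Fas, -0.35 to 0.90 for Cbr1, -0.37 to 0.31 for Cdkn1a, -0.20 to 0.11 for Calr, -0.044 to 0.10 for Tdp2, -0.18 to 0.10 for B2m, -0.53 to 1.06 for Gdf15, -0.14 to 0.19 for Mdm2, -0.40 to 0.50 for Top2b, -0.24 to 0.26 for Hmgb1 and -1.41 to 0.95 for Ifng.

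Single libraries also moved values of DPD over DOX by over 1.5 times, among them the following. Over left-out libraries Top2a ranged from 0.0046 to 0.52 and Abcb1b from 0.11 to 0.64, and the median from -0.0011 to 0.36 for DNA damage and repair, -0.44 to 0.14 for oxidative phosphorylation, -0.28 to 0.11 for anthracycline transport and -0.17 to -0.039 for apoptosis regulators. Without DOX replicate 1 the list median was 0.43 for macrophages and monocytes, 0.42 for endothelial cells, 0.11 for type I interferon and 0.95 for skeletal muscle, and the log2 fold change was 0.38 for Cd274 and 0.93 for Tap1. Without DOX replicate 2 the median was 0.31 for dendritic cells, 0.54 for type I interferon, -0.74 for ribosomal proteins and -0.48 for hypoxia and glycolysis, with 1.16 for Cd274 and 0.33 for Tap1. Without DPD replicate 1 it was 0.73 for dendritic cells and -0.66 for ribosomal proteins, with -4.10 for Hbb-bt. Without DPD replicate 2 it was 0.14 for endothelial cells and -0.13 for ribosomal proteins, with 0.86 for Gbp4, 0.42 for Il2rb, 0.51 for Gzmb, 0.46 for Foxp3 and -0.72 for Mmp9. The cause was not tested. No paired analysis was possible because the labels number no replicates. With 2 libraries a group, differences under about 0.52 on the log2 scale lay within the median interval.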
